A study of Mus musculus with 2 samples.

Results

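The genes described here are 10 transcription factors of the reproductive tract, Pax2, Pax8, Emx2, Lhx1, Msx1, Msx2, Foxa2, Sox17, Foxl2 and Tcf21. They were found by symbol among 43346 annotated genes in RNA-seq of tissue labelled as mouse subcutaneous fat. They were selected on their TPM and counts in the 2 libraries of the series, because genes of the uterus lay far apart there, so the difference between the libraries is a description here and not a finding. Both libraries belong to a single group. Per the labels, this is subcutaneous adipose tissue of C57BL/6J mice at 8 weeks, pooled from male and female littermates, with no treatment or altered gene named. The labels number the libraries as biological replicates 1 and 2, and give each its own tissue record with a donor record in common. How many animals went into each pool was not given in the sources used here. There are no controls, and no condition can be compared.

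The ducts of the embryo that become the uterus, oviduct and upper vagina form next to those of the kidney and male tract, and much of the same set of factors builds both. Pax2, Pax8, Emx2 and Lhx1 act early, when the duct epithelium forms. Msx1, Msx2, Foxa2 and Sox17 act later in uterine epithelium, where Foxa2 marks the glands, while Foxl2 and Tcf21 belong to mesenchyme. Several have other known homes: Pax8 in thyroid, Foxl2 in ovary and pituitary, Foxa2 in endoderm, Sox17 in endothelium, and Tcf21 in mesenchymal progenitors of several organs, visceral fat among them.

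White adipocyte genes were present in both libraries, unequally, and do not tell one fat depot from another. The white adipocyte list, 10 genes in all, summed to 6681 TPM in replicate 1 and 24411 in replicate 2, where TPM is a relative abundance scaled per transcript length. Fabp4, the fatty acid carrier, was at 1890.4 and 6723 TPM and Lpl, lipoprotein lipase, at 1175 and 5362. Replicate 1 also held genes listed for uterine epithelium, a tissue that the label of fat does not name. This list summed to 1391 TPM there against 25.9 in replicate 2. Krt19, in this list, is in the mesothelium list too, and the tissue behind these genes was not tested. The labels give both sexes, but Xist, made by female cells, had 45378 and 25266 counts while 4 Y genes together had 6 and 4. The estimated counts added up to 54752739 for replicate 1 and 58687668 for replicate 2. Each result below is given for each library, since the 2 libraries stand apart and nothing in the series says which is typical.

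The DNA just before the start sites of 4 of these genes is printed because the transcripts counted below begin there. RefSeq's windows run from 250 bases before to 50 bases after the start, on build GRCm38.p6. The printed stretch of each ends at the last base before the start, as RefSeq or GENCODE gives it, whichever lies further upstream, and reads 5′ to 3′ on the gene's strand. Msx1 is at chr5:37824586-37824835 on the minus strand, and Foxa2 at chr2:148045949-148046198, minus. Pax8 is at chr2:24475600-24475849, minus, and Tcf21 at chr10:22820175-22820393, minus. The RefSeq starts of the Foxa2 and Pax8 windows are at 0 bases from the first base of Foxa2-202 and Pax8-201, the transcripts that took most of each gene's TPM in replicate 1. The Msx1 start is 2 bases from that of Msx1-201 and the Tcf21 start 31 bases from that of Tcf21-201. Capitals mark CCAAT and the GC box GGGCGG on either strand.
Msx1: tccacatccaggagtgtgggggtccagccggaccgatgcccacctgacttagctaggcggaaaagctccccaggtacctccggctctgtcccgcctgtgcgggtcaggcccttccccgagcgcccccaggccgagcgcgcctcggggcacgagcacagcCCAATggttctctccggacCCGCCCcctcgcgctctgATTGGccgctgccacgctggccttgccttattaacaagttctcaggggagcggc
Foxa2: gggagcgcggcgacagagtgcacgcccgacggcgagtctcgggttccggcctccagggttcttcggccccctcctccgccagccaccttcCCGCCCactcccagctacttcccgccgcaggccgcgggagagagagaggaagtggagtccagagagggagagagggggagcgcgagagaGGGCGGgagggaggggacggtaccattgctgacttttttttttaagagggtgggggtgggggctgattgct
Pax8: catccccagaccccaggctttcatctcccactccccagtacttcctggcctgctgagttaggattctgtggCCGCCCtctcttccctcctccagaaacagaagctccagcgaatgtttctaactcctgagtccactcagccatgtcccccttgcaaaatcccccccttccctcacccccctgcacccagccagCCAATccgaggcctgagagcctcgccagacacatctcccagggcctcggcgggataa
Tcf21: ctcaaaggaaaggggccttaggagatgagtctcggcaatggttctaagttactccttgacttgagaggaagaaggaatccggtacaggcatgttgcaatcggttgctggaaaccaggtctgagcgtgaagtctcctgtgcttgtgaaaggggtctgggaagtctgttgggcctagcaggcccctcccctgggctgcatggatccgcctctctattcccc
Over the whole windows the ratio of observed to expected CpG was 0.794 for Msx1 and 0.767 for Foxa2, against 0.288 for Pax8 and 0.378 for Tcf21, with a median of 0.384 over all windows. Msx1 and Foxa2 thus lay above that median, and Pax8 and Tcf21 below it.

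RefSeq's table had 13 windows for 9 of the 10 genes, 3 of them each for Pax2 and Foxa2. Their median GC content was 61.7% (range 51.7% to 71.7%), against 52.7% over all 32851 windows of the table. The GC box was in 10 of the 13 windows and in 35.7% of all windows. CCAAT was in 6 of 13 and in 37.4% of all, and the TATA box, searched as TATAAA on both strands, was in 1 of 13 and in 13.6% of all. The consensus estrogen response element (GGTCA, any 3 bases, TGACC), which reads the same on both strands, was in 0 of 13 and in 0.0700% of all. Windows of one gene share its locus, and a match of letters is not a bound site.

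In replicate 1, 9 of the 10 genes reached a TPM of at least 1, and in replicate 2 only Sox17, Tcf21 and Msx1 did. Over all annotated genes the share at that level was 34.1% in replicate 1 and 30.2% in replicate 2. The TPM of the 10 genes summed to 555.5 in replicate 1 and 93.8 in replicate 2. Sox17, Tcf21 and Msx1 held 83.7% of that sum in replicate 1 and 99.3% in replicate 2. In bulk tissue, fewer cells of a type and less RNA per cell cannot be told apart.

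**Figure D1:**
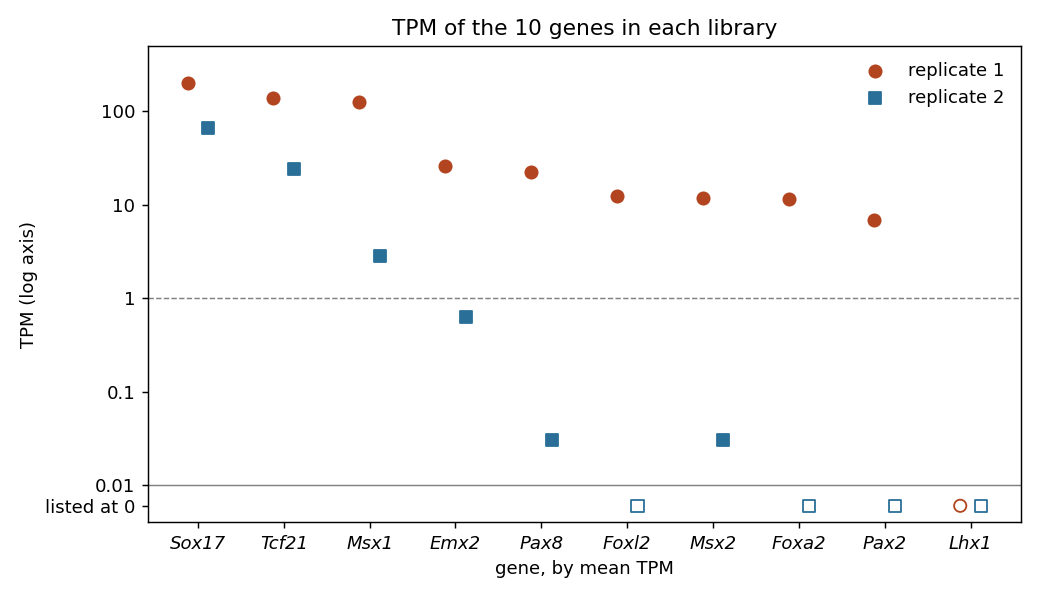
TPM of each gene (log axis) in replicate 1 (circles) and replicate 2 (squares), ordered by mean TPM; open symbols are values listed at 0 and the dashed line is a TPM of 1. Lhx1 is listed at 0 in both libraries, and for the 9 other genes replicate 1 is the higher library.

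By mean TPM the order was Sox17 (134 ± 95.5, SD, n = 2), Tcf21 (81.2 ± 81.0), Msx1 (63.9 ± 86.3), Emx2 (13.4 ± 18.0), Pax8 (11.1 ± 15.7), Foxl2 (6.15 ± 8.70), Msx2 (5.92 ± 8.33), Foxa2 (5.71 ± 8.07), Pax2 (3.44 ± 4.86) and Lhx1 (0). All 9 pairs of neighbours in this order had overlapping ranges over the 2 libraries, so no neighbour differed from the next beyond the spread. Within replicate 1 the order was the same. In replicate 2 it was the same down to Emx2, and the rest were at 0.03 TPM or listed at 0. The counts of all 10 genes were whole numbers in both libraries.

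For the comparison of the libraries, counts were scaled with TMM factors, which bring the bulk of genes to a ratio near 1. Each ratio divides replicate 1 by replicate 2 and has a 95% Clopper-Pearson interval (exact), which covers counting error only, as do floors. A gene passed the 2-fold bound when this interval lay wholly beyond 2-fold. Only genes whose scaled counts averaged 10 or more were read. Of the 10 genes 9 had that many, 8 passed the bound toward replicate 1, 0 toward replicate 2, and Sox17 did not pass it. Of all 17167 genes read, 14.3% passed it toward replicate 1 and 9.96% toward replicate 2, or 24.3% either way. Because the genes were picked for this difference, nothing is read from the count. With genes at 0 in replicate 2 taken at a floor of 3 counts per library, the median log2 ratio of the 9 genes was 6.89. It is the value of Foxl2, itself at 0 counts in replicate 2, so it is a value that the floor sets. The median over all genes read was 0.0018. No p-value is given, since each side is 1 library. Scaling by total count moved log2 ratios by 0.52 and by spike-ins by 0.46 toward replicate 1, and Sox17 was the 1 gene of the 10 whose call changed.

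**Figure D2:**
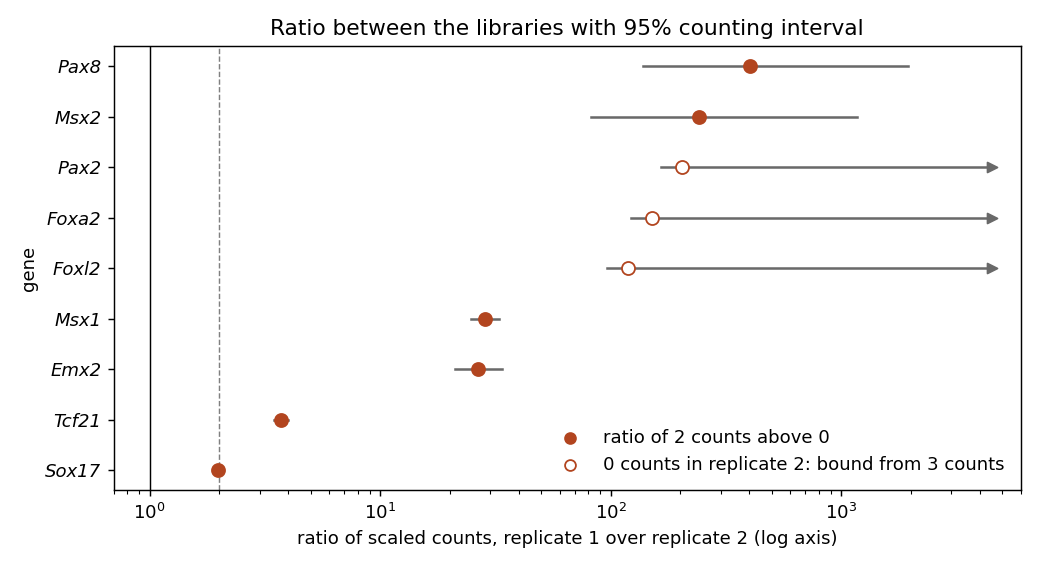
Ratio of scaled counts, replicate 1 over replicate 2 (log axis), with 95% counting intervals for the 9 genes with enough counts; open symbols are lower bounds for genes with 0 counts in replicate 2, arrows mark intervals without an upper end, and the dashed line is 2-fold. Sox17 sits at 1.97 and Tcf21 at 3.71, Emx2 and Msx1 at 26.6 and 28.5, and the other 5 genes above 100.

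Among the early duct factors, Pax2 (ENSMUSG00000004231.11, GRCm38 chromosome 19, 44756045 to 44837871), a paired-box factor also needed for the kidney, had 817 counts in replicate 1 and 0 in replicate 2. This was 6.88 TPM against a value listed at 0, where a floor of 3 counts corresponds to 0.0237 TPM. With replicate 2 taken at that floor, Pax2 was 205-fold higher in replicate 1, with a lower 95% limit of 166. Its close relative Pax8 (ENSMUSG00000026976.11, chromosome 2, 24420560 to 24475599) had 1613 and 3 counts, or 22.2 and 0.03 TPM. The ratio was 404, with an interval of 138 to 1959.9 that is wide because of the 3 counts. In replicate 1, Pax8 made up 66.4% of the counts of the pair (95% interval 64.5% to 68.3%).

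Emx2 (ENSMUSG00000043969.4, chromosome 19, 59458372 to 59465357), a homeobox factor of the urogenital system and the forebrain, had 2654 counts in replicate 1 and 75 in replicate 2. Its TPM was 26.1 and 0.63, and the ratio was 26.6 (21.1 to 33.9). Emx2 thus differed from Pax2 and Pax8 in having a countable level in both libraries. Lhx1 (ENSMUSG00000018698.11, chromosome 11, 84518284 to 84525535), a LIM-homeobox factor needed for duct formation in the embryo, had 0 counts in both libraries. At its length 3 counts correspond to 0.0598 TPM in replicate 1 and 0.0511 in replicate 2, so a level under these was not detectable at this depth. Its neighbour Lhx1os, transcribed the other way from 125 bases off, was also at 0 counts in both.

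Of the factors of the later epithelium, Msx1 (ENSMUSG00000048450.10, chromosome 5, 37820485 to 37824583), a homeobox repressor, had 8053 counts in replicate 1 and 212 in replicate 2. At 125 and 2.80 TPM it ranked 1121 and 10878 among all annotated genes, and the ratio was 28.5 (24.9 to 32.8). Msx2 (ENSMUSG00000021469.9, chromosome 13, 53466884 to 53473074), which can act in place of Msx1 in many tissues, had 963 and 3 counts. Its TPM was 11.8 and 0.03, and the ratio was 241 (82.2 to 1171). The interval of Msx2 lay wholly above that of Msx1. Accordingly Msx1 took 89.3% of the counts of the pair in replicate 1 (88.7% to 89.9%) and 98.6% in replicate 2 (96.0% to 99.7%).

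Foxa2 (ENSMUSG00000037025.7, chromosome 2, 148042877 to 148046969), a forkhead factor of uterine glands, had 606 counts in replicate 1 and 0 in replicate 2, or 11.4 TPM against a value listed at 0. It was at least 152-fold higher in replicate 1 (lower limit 123). The gene family was almost Foxa2 alone: in replicate 1 it held 93.7% of the 647 counts of Foxa1, Foxa2 and Foxa3 (91.5% to 95.4%), and in replicate 2 these genes had 0 counts. The long noncoding RNA 9030622O22Rik, whose annotation ends 2674 bases from Foxa2, had 39 and 0 counts.

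Sox17 (ENSMUSG00000025902.9, chromosome 1, 4490931 to 4497354), an HMG-box factor of endoderm, endothelium and uterine epithelium, was the most abundant of the 10. Replicate 1 held 10417 counts of it, at 201 TPM and rank 664, and replicate 2 held 3970, at 66.35 TPM and rank 1796. The ratio was 1.97 (1.90 to 2.04), an interval that spans 2-fold, so Sox17 did not pass the bound. With scaling by total count it was 2.82 (2.71 to 2.92) and by spike-ins 2.70 (2.61 to 2.80), both past the bound. Its relatives Sox7 and Sox18, known together with Sox17 from endothelium, lay on the other side. Sox18 had 97.5 and 123 TPM and was 1.97-fold higher in replicate 2 (1.90 to 2.04), and Sox7 had 10.6 and 13.5 TPM (2.00-fold, 1.86 to 2.15). Within the counts of the trio Sox17 therefore made up 62.0% in replicate 1 (61.3% to 62.8%) and 29.5% in replicate 2 (28.8% to 30.3%), and no scaling enters these shares. The list of 10 endothelial markers, which includes Sox7 and Sox18, summed to 464 TPM in replicate 1 and 699 in replicate 2. Of these, 5 passed the 2-fold bound toward replicate 2 and 0 toward replicate 1, and the median log2 ratio was -1.18. Scaled by total count, 1 of them passed it toward replicate 2, and with spike-ins 2 did. Cdh5, the cadherin of endothelial junctions, was the highest at 110 and 192 TPM. The part of endothelial RNA in the Sox17 values was not tested.

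Of the mesenchymal factors, Foxl2 (ENSMUSG00000050397.3, chromosome 9, 98955288 to 98958543), a forkhead factor of ovarian granulosa cells and uterine stroma, had 475 counts in replicate 1 and 0 in replicate 2. It was at 12.3 TPM in replicate 1 and, at the floor of 3 counts, 119-fold higher there (lower limit 96.3). Tcf21 (ENSMUSG00000045680.7, chromosome 10, 22817281 to 22820174), a basic helix-loop-helix factor of mesenchymal progenitors, was present in both libraries. It had 5252 and 1062 counts, or 138 and 23.95 TPM, at ranks 1023 and 4294, and the ratio was 3.71 (3.48 to 3.97). A list of 10 fibroblast and progenitor markers had summed TPM of 2722 in replicate 1 and 2323 in replicate 2. In it Pdgfra and Thy1 passed the bound toward replicate 1, and Pi16 and Col15a1 toward replicate 2. Its median log2 ratio was -0.20 and turned to 0.32 with total count scaling and 0.26 with spike-ins. Its highest gene, the proteoglycan gene Dcn, had a ratio of 1.10 (1.09 to 1.11).

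Antisense and divergent genes beside the factors were read next, taking every annotated gene within 10 kb. Of 14 such genes, Gm10824, which overlaps Tcf21 by 2894 bases on the other strand, was not among the genes counted. Of the other 13, 6 had counts. Foxl2os starts beside Foxl2 on the other strand, and their annotations overlap by 12 bases. Replicate 1 held 3225 counts of it (49.0 TPM) and replicate 2 held 3 (0.02 TPM), and the ratio was 807 (276 to 3916). Foxl2os was the higher transcript of this pair, and Foxl2 held 20.1% of their TPM in replicate 1.

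Emx2os overlaps the first 264 bases of Emx2 on the other strand. It had 508 and 85 counts, or 2.81 and 0.40 TPM, with a ratio of 4.49 (3.56 to 5.72), lower than that of Emx2. Emx2 made up 83.9% of the counts of this pair in replicate 1 (82.6% to 85.2%) and 46.9% in replicate 2 (39.0% to 54.9%), and the 2 intervals do not overlap. Whether counting used the strand was not given in the sources used here. Reads inside this overlap thus cannot be assigned with certainty. The same holds wherever a neighbour overlaps a factor on the other strand, as Gm10824 does Tcf21, Gm13415 does Pax8 and Gm37587 does Sox17 (804 bases). Gm20395 and 1700039E22Rik, antisense to Pax2, and Gm13415, which overlaps Pax8 on the other strand, had 0 counts in both libraries. So did Mir6405, Gm27193 and Gm27420, the remaining neighbours. Of the other neighbours, Gm37587 at Sox17 had 32 and 2 counts, Psd4 at Pax8 had 909 and 334, and Aatf at Lhx1 had 342 and 117. Psd4 (ratio 2.04, 1.80 to 2.32) and Aatf (2.20, 1.77 to 2.73) did not pass the bound, since their intervals span 2-fold.

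**Figure D3:**
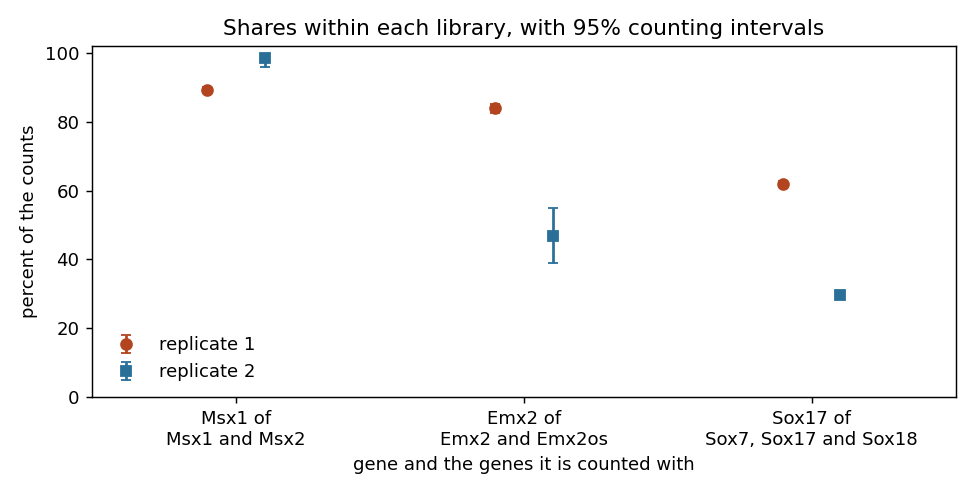
Share of counts within each library (percent) for Msx1, Emx2 and Sox17 among the genes named under each, with exact 95% counting intervals; circles are replicate 1 and squares replicate 2. Msx1 took the larger share in replicate 2 (98.6%), while Emx2 (83.9%) and Sox17 (62.0%) took the larger share in replicate 1.

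Which transcript carried each gene was not used to choose the genes. It is given here for libraries with at least 10 counts of the gene, as the deposited percent of the gene's TPM. Emx2-201, 1 of 3 annotated transcripts, held 100% of Emx2 in both libraries. Foxl2 and Tcf21 have 1 annotated transcript each, so their 100% is fixed by the annotation. Pax2 was divided over all 3 of its annotated transcripts in replicate 1, with 41.8% for Pax2-201, 40.3% for Pax2-203 and 18.0% for Pax2-202. Pax8-201 held 78.3% of Pax8, and the short retained-intron transcript Pax8-205 held 14.75% on 16.1 counts. In Foxa2, Foxa2-202 held 63.2% with 503 counts and Foxa2-204, which starts further upstream at 148046896, held 36.8% with 103 counts. Foxa2-201 and Foxa2-203, whose RefSeq windows have starts at 148046969 and 148045464, were listed at 0.

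Msx1 and Sox17 could be read in both libraries. The coding transcript Msx1-201 held 88.8% in replicate 1 and 95.6% in replicate 2, and Msx1-202, which retains the intron, held 11.2% and 4.44%. In Msx2, read in replicate 1 only, Msx2-201 held 92.1%. Sox17 was carried by 4 transcripts. Sox17-208 had 35.6% in replicate 1 and 38.9% in replicate 2, and the retained-intron transcript Sox17-205 had 16.8% and 16.6%. Sox17-202 had 35.2% and 20.9%, or 3458 and 792 counts. The shorter Sox17-204 had 475 and 352 counts, at 20.2 and 12.8 TPM, which is 19.35% of the gene in replicate 2. All these shares are the model's division of reads among overlapping transcripts, and 1 library a side gives no test of the change.

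**Figure D4:**
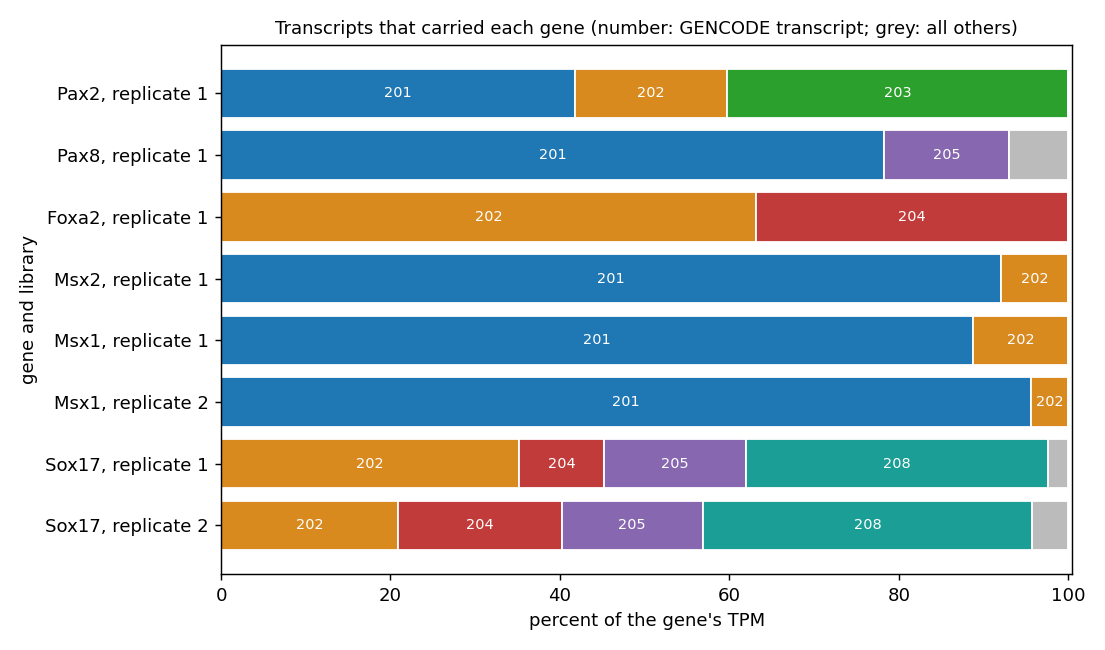
Percent of each gene's TPM taken by its transcripts in the libraries where the gene had enough counts and more than 1 transcript was read; numbers are the GENCODE transcript numbers and grey is the sum of the rest. Sox17-202 takes 35.2% in replicate 1 and 20.9% in replicate 2, while Sox17-208 takes 35.6% and 38.9%.

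Most other transcription factors of the tract also had their higher level in replicate 1. Of 26 listed, 25 had enough counts, and the median log2 ratio was 2.18. The bound was passed by 17 toward replicate 1 and 1 toward replicate 2, and 7 lay within it. With total count or spike-in scaling 18 passed it toward replicate 1. The list summed to 1461 TPM in replicate 1 and 146 in replicate 2. Without Wt1 and Foxj1, which lists below also hold, the sums were 1319 and 135. Osr2, an odd-skipped factor of mesenchyme, was the highest, with 313 and 5.27 TPM (ratio 38.1, 34.3 to 42.5). Hoxa10, which patterns the uterus, had 164 and 14.2 TPM (7.97, 7.44 to 8.54). This list and those below were chosen with earlier results of these libraries known, so they are no independent evidence of a direction.

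Ligands and receptors of the tract were more mixed. All 20 had enough counts, 11 passed the bound toward replicate 1 and 4 toward replicate 2, and the median log2 ratio was 1.51. The hedgehog effector Gli1 led with 118 and 3.03 TPM (24.9, 22.7 to 27.4), and Wnt5a, a ligand of tract mesenchyme, followed with 73.7 and 10.5 TPM (4.46, 4.26 to 4.67). Ihh, the hedgehog ligand of uterine epithelium, chosen after its values were seen, had 2347 and 12 counts. The 4 on the other side were Ret, Wnt9b, Fgf10 and Lifr. Also chosen after its value was seen, Ret, the receptor of kidney duct and nerve, was 7.90-fold higher in replicate 2 (7.32 to 8.54). With total count or spike-in scaling the number toward replicate 2 was 2.

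The closest relatives of the 10 genes were mostly silent or lay either way. Of 24 paralogs 8 had enough counts, 2 passed the bound toward replicate 1, 3 toward replicate 2 and 3 neither way. The median log2 ratio was -0.99. Scaled by total count or spike-ins, the numbers were 2 and 2. Sox18, given above, and Tcf15, a factor of paraxial mesoderm and endothelium, were the highest. Tcf15 had 10.6 and 34.8 TPM and was 5.11-fold higher in replicate 2 (4.50 to 5.81). The paralogs higher in replicate 1, both chosen after their values were seen, were Foxa1 with 39 and 0 counts and Tcf23 with 3072 and 85. Another 9 had 0 counts in both libraries, namely Pax3, Pax4, Pax6, Pax7, Pax9, Lhx3, Lhx4, Lhx5 and Msx3.

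Markers of the cell types that could hold these factors were summed in each library. The uterine epithelium list went from 1391 TPM in replicate 1 to 25.9 in replicate 2. Without Krt19, which the mesothelium list also holds, the sums were 1168 and 15.6. Of its 20 genes 17 had enough counts, and all 17 passed the bound toward replicate 1, while Prss28 and Prss29 were at 0 in both. Their median log2 ratio of 6.96 is again set by the floor, since it is that of Cxcl15, at 497 and 0 counts. Wfdc2, a secreted epithelial protein, led with 380 and 0.14 TPM, followed by the keratin gene Krt19 with 223 and 10.3. The list of myometrium and other smooth muscle went from 6176 to 768 TPM, and 8 of 10 genes passed the bound toward replicate 1 (median log2 2.42). Acta2 was at 3567 and 428 TPM and Tagln at 944 and 142. Of the 2 that did not pass, Synpo2 was at 61.0 and 39.7 TPM. The other, Oxtr, was at 41.6 and 44.1 TPM, with a ratio of 0.60 (0.58 to 0.62). The mesothelium list went from 514 to 74.2 TPM, with 5 of 8 genes past the bound toward replicate 1 (median log2 1.32). With total count or spike-in scaling all 8 passed. Its highest genes were Krt19 and Wt1, the latter at 140 and 11.0 TPM. Krt19 is also in the uterine epithelium list and Wt1 in the list of tract factors, and without them the sums were 151 and 52.9 TPM, with 3 of 6 genes past the bound.

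Lists of other organs where these factors are known to act were summed in the same way. Thyroid summed to 30.7 and 69.3 TPM, nearly all of it Tshr at 28.3 and 69.1, a receptor gene that fat also expresses. Its median log2 ratio was -0.21, and 0.31 or 0.25 scaled by total count or spike-ins. The hormone precursor gene Tg had 15 and 13 counts, Foxe1 was at 0 in both, and the iodide carrier gene Slc5a5, with 190 and 4 counts, was the 1 of 3 genes past the bound toward replicate 1, and Tshr the 1 toward replicate 2. Kidney summed to 8.89 and 0.39 TPM. Its 2 genes with enough counts, Lrp2 (5.81 and 0.14 TPM) and Cdh16 (2.56 and 0.04), passed it toward replicate 1 (median log2 5.02), while Slc12a1, Nphs1, Kap and Slc22a6 were at 0 in both. All 7 pituitary genes were at 0 in both libraries. Ovary summed to 21.2 and 6.50 TPM, mostly Inha at 17.1 and 3.24, the 1 of 4 genes past the bound (median log2 0.36). Gdf9 was at 1.31 and 2.04 TPM, and Fshr, Cyp19a1 and Oosp1 were at 0 in both.

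In the oviduct and cilia list, 2 of 5 genes passed the bound toward replicate 1 and 1, Tekt1, toward replicate 2 (median log2 1.32), and the sums were 5.27 and 2.80 TPM, or 3.44 and 2.77 without Foxj1, which the list of tract factors also holds. Ovgp1, the oviduct glycoprotein gene, was at 2.24 and 0.96 TPM, and Ccdc153 was at 0 in both. The male tract list was divided, 3 of 7 genes each way, with a median log2 ratio of 0.90 and sums of 10.65 and 10.25 TPM. Its highest genes were Svs5, a seminal vesicle gene with 3 and 107 counts, and Lcn8, an epididymal gene with 74 and 9. The bladder list summed to 36.7 and 2.70 TPM with 4 of 5 genes past the bound toward replicate 1 (median log2 4.81), Upk1a at 19.0 and 2.22 TPM and Upk3a at 8.29 and 0.13. The mammary list summed to 5.17 and 0.24 TPM with Csn2, Csn1s1 and Wap at 0 in both, and its 2 genes with enough counts, Krt5 and Elf5, passed the bound toward replicate 1 (median log2 5.38). Krt5 is in the bladder list too, and without it the mammary sums were 2.37 and 0.19 TPM and the bladder sums 33.9 and 2.65. In the endoderm list 0 of 5 genes passed the bound toward replicate 1 and 2 toward replicate 2 (median log2 -1.42), with Alb at 14.0 and 23.9 TPM, Gata6 at 18.4 and 8.54, and Cdx2 and Pdx1 at 0 in both. The white adipocyte list lay the other way, with all 10 genes past the bound toward replicate 2 (median log2 -2.34), or 8 of 10 with total count or spike-in scaling. The part of any of these cell types in the levels of the 10 factors was not tested.

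**Figure D5:**
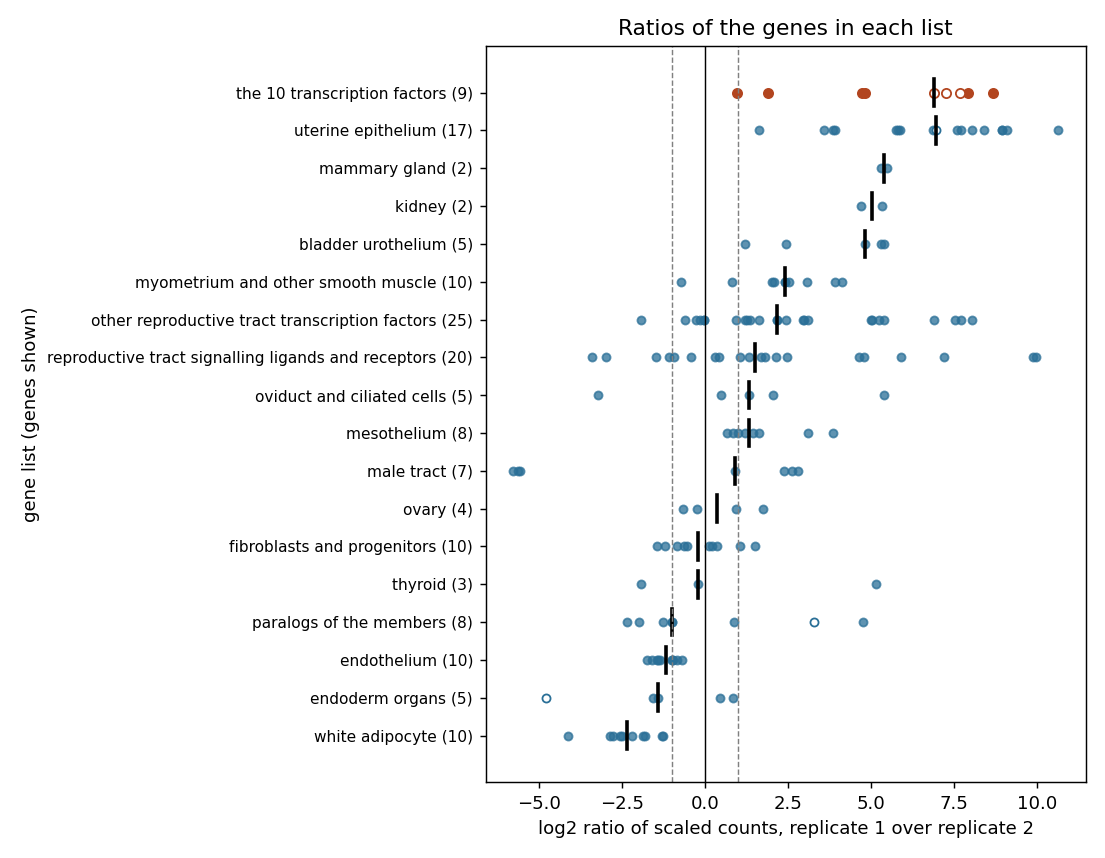
Log2 ratio of scaled counts, replicate 1 over replicate 2, for each gene with enough counts in each list (numbers in brackets). Black bars are medians, dashed lines are 2-fold either way, and open points are genes with 0 counts in 1 library, taken there at a floor of 3 counts. The 9 factors (median 6.89) and the uterine epithelium list (6.96) lie furthest toward replicate 1, both medians being set by that floor. The white adipocyte list (-2.34) lies furthest toward replicate 2.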

How the data were processed

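RNA over 200 nt was sequenced as stranded paired reads of 76 nt, per the labels. The deposited tables give an expected count, TPM and FPKM per gene, and a percent of the gene's TPM per transcript. Per the notes deposited beside the tables, these are on mm10 with GENCODE M4. The counting program was not given in the sources used here. Symbols were matched by identifier for 42462 of 43346 genes. Coordinates are from GENCODE M21 on GRCm38, the same build, and sequences from RefSeq on GRCm38.p6. Spike-ins were left out of library sizes, and the tables on build mm9 were not used here.

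Expected counts were rounded and scaled with TMM factors of edgeR 4.0.16 in R 4.3.3 (1.20 and 0.837 for replicates 1 and 2). Intervals were computed with scipy 1.17.1 at the 95% level. The calculation of the calls was tested on simulated counts that varied by counting error only. That test does not cover variation between tissue pools. The floor was 3 counts. Alternatives were scaling by DESeq2 1.42.0, by total count or by spike-ins, other filters, bounds and pseudocounts, FPKM and posterior mean values.

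The 10 genes and the 18 gene lists were chosen with earlier results of these data known. Genes named are all 10, their neighbours within 10 kb, the 2 highest genes by mean TPM of each list, lone genes in a direction, and transcripts with at least 10% of a gene's TPM; markers listed at 0 or that define a cell type were added. Of the genes that this rule picks, 1 is not reported here. Some list genes outside this rule were named for their values or calls, such as Pdgfra, Thy1, Pi16, Synpo2, Oxtr, Wnt9b, Fgf10 and Lifr. The remaining list genes enter the counts, medians and sums only.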

Additional observations from a re-analysis of the deposited data

How the results depend on the processing

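Of the 10 genes, 8 were over 2-fold apart with TMM and with DESeq2 size factors, with scaled counts averaging at least 100 and with no filter. Over all genes read, the shares apart either way were 24.3%, 24.3%, 23.1% and 19.4% in that order. Of the 10, the number was 9 with total count or spike-in scaling, which add Sox17, and 7 with a 4-fold bound, and all were higher in replicate 1. There the shares over all genes were 27.8%, 27% and 9.38%. The 10 genes were picked for this difference, so nothing is read from these numbers. The median log2 ratio, a value that the floor sets, was 6.89 with TMM and with DESeq2, 7.41 by total count and 7.35 by spike-ins. It was 6.19 with no filter and a pseudocount of 1, 6.13 on TPM with a pseudocount of 0.1, 3.64 with a pseudocount of 1, and 5.59 on FPKM with 0.1. Pseudocounts draw ratios of genes at or near 0 toward 1 by their construction. The number at a TPM of at least 1 in both libraries was 3, with 4 at a threshold of 0.5 and 2 at 5. Of all 43346 annotated genes, 12759 reached a TPM of 1 in both, and their shares at 0.5 and 5 are not given. Leaving out 1 replicate, an alternative chosen after seeing the data, the number of the 10 genes ranged from 3 to 9. Transcripts at 10% or more, of genes with at least 10 counts in the library, numbered 17 in replicate 1 and 7 in replicate 2, all 7 among the 17. Fewer genes had that many counts in replicate 2, so the gap between these numbers reflects gene levels and not transcript use. On posterior mean percents the transcripts numbered 16 and 8, without Sox17-204 in replicate 1 and with Emx2-203 in replicate 2. No paired analysis was possible because the series has a single group. Each of the 9 ratios kept its direction under all 3 other scalings. This was fixed in advance, since a scaling moves all ratios by the same small factor and the lowest was 1.97. With total count or spike-in scaling 4 ratios moved beyond their interval, and with DESeq2 0 did. The shift being common to all, which ratios moved depends on the width of their intervals. With total count or spike-in scaling, the ovary list had 2 genes past the bound toward replicate 1 in place of 1, and the endoderm list 1 toward replicate 2 in place of 2, and the fibroblast list 0 toward replicate 2 in place of 2. No ratio can be formed without either library. Depth limits the genes with 0 to 3 counts in replicate 2, where ratios rest on the floor or have wide intervals.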
